A study of Mus musculus with 18 samples.

Results

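The apex of infarcted mouse hearts was compared with the apex of sham-operated hearts, both from mice given vehicle, gene by gene across the measured transcriptome. The comparison used 12 of the 18 libraries of the study, chosen by their labels: 6 of infarcted heart with vehicle and 6 of sham heart with vehicle. Genes were tested where the deposited FPKM (fragments per transcript length and per mapped reads of the library) reached at least 1 in at least 6 of these 12 libraries, which 11969 of the 19197 genes in the table did. All mice were C57BL/6, an inbred laboratory strain, with no altered gene named, and the profiles are described as taken 1 day after infarction. The sham mice differed from the infarcted mice by the operation alone, as far as the labels tell, and both groups received vehicle. Hearts had been perfused with phosphate buffer and frozen before the apex, the lower tip of the ventricles, was separated for RNA. The labels do not name the operation, the age or sex of the mice, the infarct size, the vehicle, or how much of each apex was infarcted tissue. Nor do they tie each library to its own mouse, and the p-values therefore describe library-to-library spread, which may be partly technical. The remaining 6 libraries, of infarcted hearts given DCA, entered no value below except 1 alternative fit.

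An infarction deprives a region of heart muscle of blood. Cardiomyocytes, the contractile cells, die there within hours, and neutrophils followed by monocytes enter from the blood and take up the dead cells. Surviving cardiomyocytes, fibroblasts and endothelial cells meanwhile change their gene expression: genes of stress, growth and matrix are known to be switched on, and genes of the oxidative metabolism that feeds the beating adult heart to be turned down. In RNA from whole tissue, fewer cells of a type and less RNA per cell cannot be told apart, and the same holds for more cells and more RNA.

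The estimated depth was 9580000 to 10700000 mapped reads in the sham libraries and 11120000 to 13800000 in the infarcted ones, so depth moved with the group, and its part in the results was not tested. The 6 sham libraries resembled one another (Pearson r from 0.982 to 0.993 across genes) more than the 6 infarcted libraries did (0.929 to 0.990). The spread on the log2 scale was larger among infarcted than among sham hearts in 8306 genes (69.4%), with a median SD of 0.21 against 0.15. Cardiomyocyte markers were high in all 12 libraries, and their summed level went from 49400 to 55700 FPKM in sham hearts to 31300 to 48100 in infarcted hearts. Of 12 such markers 10 fell and 1 rose, where over all genes tested 20.1% fell and 38.3% rose. All 12 monocyte and macrophage markers rose (summed level 284 to 481 FPKM in sham hearts and 595 to 1370 in infarcted hearts), as did all 7 tested neutrophil markers (50.2 to 125 and 171 to 488 FPKM). The 2 tested platelet markers rose as well (19.7 to 48.7 FPKM and 41.3 to 111 FPKM). No erythroid, lymphocyte or epicardial marker was called, with 5, 1 and 2 tested. Markers of the cell types named next were mixed or fell. Of 10 endothelial markers 5 fell and 1 rose, and of 10 fibroblast markers 4 fell and 3 rose. Smooth muscle and pericyte markers also had 4 falls and 3 rises among 10. Of 7 tested resident macrophage markers 3 fell and none rose, and of 6 tested Schwann and neuronal markers 4 fell and none rose. No lung epithelial or adipocyte marker reached the expression filter.

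As deposited, genes that rose after infarction outnumbered those that fell. At an adjusted p under 0.05 (limma, Benjamini-Hochberg over all genes tested), 4583 genes (38.3%) rose and 2408 (20.1%) fell, so that 58.4% of genes were called in one direction or the other. A change of at least 1 on the log2 scale was reached by 785 rising genes (6.56%) and 292 falling genes (2.44%). In 1928 genes (16.1%) every infarcted heart lay above every sham heart, and in 687 (5.74%) every infarcted heart lay below. The median log2 fold change over all genes was 0.12, and median-ratio scaling of the libraries, which sets this median to about 0, gave 3402 rising and 3416 falling genes. The share of rising genes among the called ones was thus 65.6% as deposited, 49.9% with median-ratio scaling and 46.3% with quantile normalization, and small changes are read below against this shift.

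The falling genes, which were fewer as deposited, were the more abundant ones. In the sham hearts they held 50.4 ± 0.79% of the summed FPKM (SD, n = 6) and in the infarcted hearts 31.8 ± 8.1%, while the rising genes went from 23.7 ± 0.59% to 42.5 ± 8.7%. Both sets were called on these same hearts, so the direction of this exchange was set by the calls. This exchange differed between the infarcted hearts: the falling genes still held 46.0% in the heart numbered 4 and 24.1% to 35.2% in the other 5. Infarcted heart 4 stood apart by other measures too. It had 36.4% of tested genes outside the range of the 6 sham hearts, against 61.5% to 75.1% in the other infarcted hearts, while single sham hearts had 25.1% to 44.5% outside the range of the other 5 sham hearts. Its median difference from sham was 0.18 in the rising genes, where the other 5 infarcted hearts were at 0.46 to 0.72. Counts without this heart are given where they differ by over 1.5 times.

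**Figure D1:**
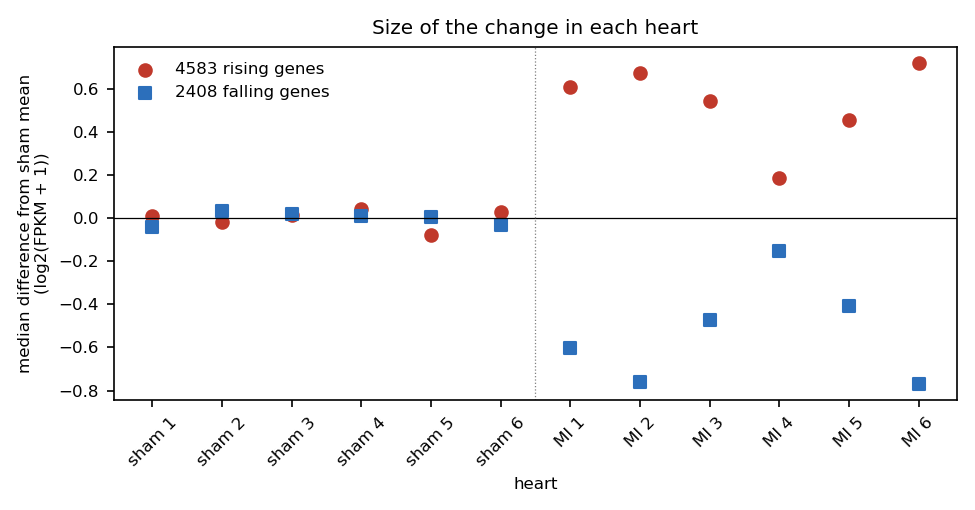
Median log2(FPKM + 1) difference from the sham mean over the 4583 rising genes (upper points) and the 2408 falling genes (lower points), one column per heart, sham hearts compared with the mean of the other 5 sham hearts. The sham hearts lie near 0, infarcted heart 4 lies at 0.18 and -0.15, and the other 5 infarcted hearts lie at 0.46 to 0.72 and at -0.41 to -0.77. The genes were called on these same hearts, which sets the direction of the group difference.

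The called genes were counted by how many infarcted hearts lay outside the sham range. The test favours genes whose hearts separate, so these shares are a description. Heart 4 was above the sham range in 2244 of the 4583 rising genes and below it in 908 of the 2408 falling genes. Of the rising genes, 1924 (42.0%) were above the sham range in all 6 infarcted hearts and another 1913 (41.7%) in 5 of them. Of the falling genes, 687 (28.5%) were below the sham range in all 6 and 1115 (46.3%) in 5. In few calls did only 1 or 2 infarcted hearts lie outside the sham range: with the mean required to reach 10 FPKM, 29 rises and 35 falls were of this kind. Such a count also depends on how widely the sham hearts spread. One was Ddit4, which encodes a stress-induced inhibitor of the growth kinase mTORC1. It lay between 9.23 and 41.3 FPKM in the sham hearts (median 28.7) and between 8.43 and 17.1 FPKM in the infarcted hearts (median 15.3). Only 1 infarcted heart was below the sham range, whose lower end was set by sham heart 3 at 9.23 FPKM. The other 5 sham hearts, at 21.2 to 41.3 FPKM, lay above every infarcted heart (log2 fold change -0.82, SE 0.29). This call was lost without sham heart 1, 2 or 5 or infarcted heart 2 (adjusted p 0.0599 to 0.0637, limma).

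Once genes with a mean under 10 FPKM were set aside, a few of the 30 genes with the largest rises are described here. Fstl3, which encodes a secreted binder of activins, was at 2.38 to 6.03 FPKM in sham hearts (median 4.88) and at 11.9 to 94.5 FPKM in infarcted hearts (median 58.5), with no overlap (log2 fold change 3.21, SE 0.39, adjusted p = 7.04e-05). Slc16a3 encodes the lactate exporter MCT4 of glycolytic cells. It lay between 1.37 and 3.12 FPKM in the sham hearts (median 2.07) and between 6.19 and 66 FPKM in the infarcted hearts (median 30.4), and no infarcted heart fell within the sham range (log2 fold change 3.15, SE 0.38, adjusted p = 7.41e-05). Thbs1, the gene of the matricellular protein thrombospondin 1, was among the genes of smallest spread for its change and rose from 1.61 ± 0.324 to 23 ± 10.9 FPKM (SD, n = 6 each; log2 fold change 3.07, SE 0.26, adjusted p = 1.37e-05). Plaur, the urokinase receptor gene, rose from 2.15 ± 0.597 to 21.4 ± 11.1 FPKM (2.66, SE 0.34). Serpinb1a, which encodes an inhibitor of neutrophil elastase, rose from 4.75 ± 1.18 to 44.4 ± 18.5 FPKM (2.9, SE 0.25), and neutrophil markers rose in the same hearts. Fhl1, a LIM domain gene of striated muscle, rose from 81.4 ± 5.23 to 755 ± 407 FPKM (2.96, SE 0.36).

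Of the 10 genes with the largest gains in FPKM, 4 are described here. Cryab, which encodes the small heat shock protein alpha-B crystallin, lay between 1987 and 2324 FPKM in the sham hearts (median 2097) and between 2772 and 9145 FPKM in the infarcted hearts (median 6468), with no overlap (log2 fold change 1.48, SE 0.24, adjusted p = 0.000355). Des, the gene of the intermediate filament desmin, rose from 1078 ± 38.9 to 2605 ± 1007 FPKM (1.17, SE 0.23). Csrp3, which encodes the Z-disc protein MLP, rose from 1122 ± 65.6 to 2303 ± 812 FPKM (0.95, SE 0.21), and Actb, a cytoplasmic actin gene, rose from 343 ± 37.5 to 1118 ± 340.0 FPKM (1.63, SE 0.21). The largest loss of FPKM was that of myoglobin. Mb, the myoglobin gene, lay between 11533 and 16495 FPKM in the sham hearts (median 12616) and between 4681 and 13648 FPKM in the infarcted hearts (median 5995). Of the infarcted hearts 5 lay below every sham heart and heart 4 did not (log2 fold change -1.0, SE 0.24, adjusted p = 0.00324).

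Several genes with large falls are described next. Mylk4, a myosin light chain kinase gene of striated muscle, lay between 35 and 65.7 FPKM in the sham hearts (median 42.3) and between 4.56 and 14.4 FPKM in the infarcted hearts (median 12.2). The groups did not overlap, and heart 4 was no exception at 14.3 FPKM (log2 fold change -1.98, SE 0.24, adjusted p = 6.14e-05). Htra3, a secreted serine protease gene, fell from 86.6 ± 11 to 27.7 ± 22.9 FPKM (-2.02, SE 0.44). Timp4, which encodes the cardiac inhibitor of matrix metalloproteinases, fell from 31.5 ± 7.86 to 8.82 ± 4.51 FPKM (-1.87, SE 0.33), opposite to the rise of Timp1 (3.83, SE 0.38). Timp2 also fell, by less and with little spread: it was at 51.4 to 58.2 FPKM in sham hearts (median 55.8) and at 30.5 to 40.3 FPKM in infarcted hearts (median 33.1) (log2 fold change -0.65, SE 0.08, adjusted p = 8.08e-05), and the groups were apart. Pcsk6 encodes a proprotein convertase that activates the natriuretic peptide protease corin, and it fell from 22.8 ± 3.01 to 6.73 ± 3.47 FPKM (-1.73, SE 0.23). Fndc5, the gene of the irisin precursor, fell from 212 ± 25.4 to 73 ± 49.5 FPKM (-1.72, SE 0.29). Dgat2, an enzyme gene of triglyceride synthesis, fell from 257 ± 32.8 to 92.4 ± 53.6 FPKM (-1.68, SE 0.33), and so did the lipoprotein receptor gene Vldlr (-1.44, SE 0.18) and Klf15, a transcription factor gene of cardiac lipid and amino acid use (-1.66, SE 0.34).

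Some falls were small in amount, with little or no overlap. Inmt, an indolethylamine methyltransferase gene, lay between 3.93 and 12.8 FPKM in the sham hearts (median 8.23) and between 0 and 1.19 FPKM in the infarcted hearts (median 0.395), which is close to loss of the signal in every infarcted heart (log2 fold change -2.73, SE 0.26, adjusted p = 2.06e-05). Cngb3, a cyclic-nucleotide-gated channel subunit gene, was at 1.97 to 3.35 FPKM in sham hearts (median 2.22) and at 0.02 to 0.6 FPKM in infarcted hearts (median 0.225) (log2 fold change -1.42, SE 0.14, adjusted p = 2.06e-05). Tob2, an antiproliferative regulator gene, fell from 29.1 ± 6.54 to 13.3 ± 1.27 FPKM (-1.05, SE 0.12), and the voltage-gated potassium channel gene Kcna5 fell from 19.6 ± 3.56 to 7.33 ± 1.36 FPKM (-1.31, SE 0.13). In heart 4 both were below the sham range as well, at 14.8 and 6.69 FPKM.

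**Figure D2:**
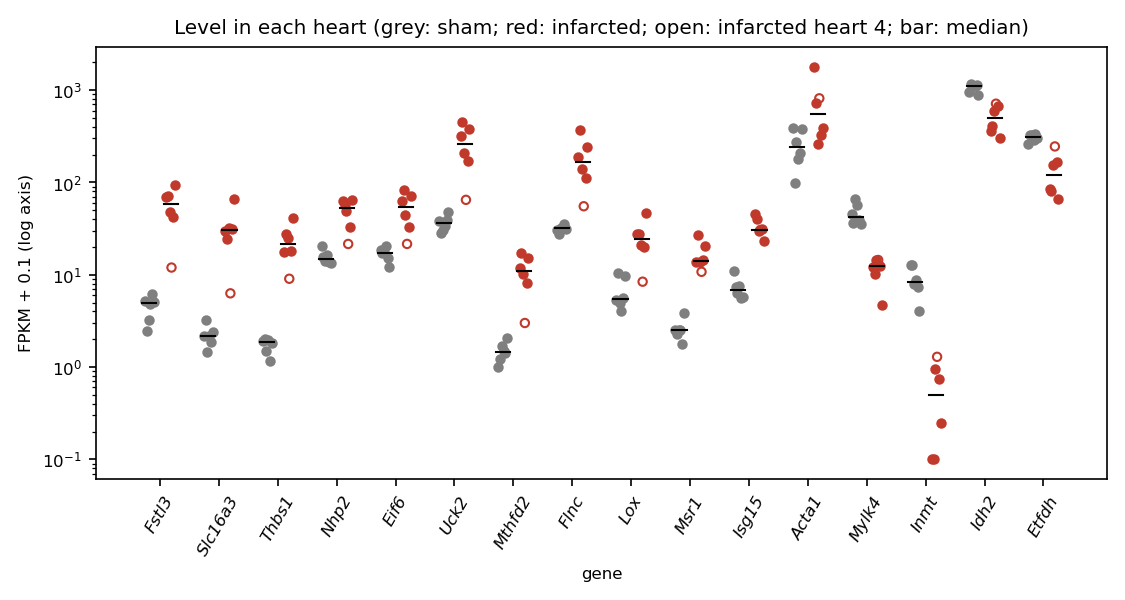
FPKM of 16 named genes in each heart on a logarithmic axis (FPKM + 0.1), sham hearts in grey and infarcted hearts in red, with infarcted heart 4 as an open red circle and short bars at the medians. In Fstl3, Slc16a3, Nhp2, Uck2 and Mylk4 no infarcted heart falls within the sham range, and the same holds for Idh2 and Etfdh, where heart 4 is the infarcted heart nearest to the sham hearts.

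Gene lists are described below by the number of members that rose and fell, read against 38.3% rising and 20.1% falling over all genes. After the median of each list, the counts with median-ratio scaling follow in the same order, marked as rescaled, and over all genes 28.4% rose and 28.5% fell with that scaling. Quantile normalization gave list counts within 3 of the rescaled ones.

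The machinery that builds ribosomes rose almost as a whole. Ribosome biogenesis begins in the nucleolus, where ribosomal RNA is transcribed, modified by small nucleolar ribonucleoproteins and cut. Of 36 tested nucleolar genes 34 (94.4%) rose and the other 2 did not pass, with a median log2 fold change of 0.68 against 0.12 over all genes (34 and 0 rescaled). Nhp2, a core protein of the pseudouridylating ribonucleoproteins, lay between 13.3 and 20.5 FPKM in the sham hearts (median 14.7) and between 21.5 and 63.9 FPKM in the infarcted hearts (median 52.8). The groups did not overlap (log2 fold change 1.49, SE 0.23, adjusted p = 0.000286). Rrp12, a factor for export of the ribosomal subunits, rose from 5.03 ± 0.624 to 16.9 ± 7.24 FPKM (1.46, SE 0.25), and Nop58, a core protein of the methylating ribonucleoproteins, rose from 12.6 ± 1.74 to 30.7 ± 9.31 FPKM (1.17, SE 0.20). The median of the list by heart was 0.81, 1.05, 0.75, 0.09, 0.52 and 1.05 in infarcted hearts 1 to 6, so heart 4 stayed near the sham mean.

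Genes of protein synthesis followed, with exchanges between paralogs. Of 23 cytosolic aminoacyl-tRNA synthetase genes, which charge tRNAs with amino acids, 19 (82.6%) rose and none fell (median 0.55; rescaled 14 and 1). Eef1e1, a scaffold of the synthetase complex, rose from 9.28 ± 1.92 to 26.7 ± 9.79 FPKM (1.36, SE 0.23) and the arginine enzyme gene Rars rose from 21.2 ± 1.21 to 45.3 ± 12.2 FPKM (1.01, SE 0.16). Of 47 initiation and elongation factor genes 26 (55.3%) rose and 4 (8.51%) fell (median 0.26; rescaled 21 and 8). Eif6, which keeps the large ribosomal subunit free of the small one, was at 11.9 to 20.6 FPKM in sham hearts (median 17.3) and at 21.5 to 83.3 FPKM in infarcted hearts (median 53.7) (log2 fold change 1.47, SE 0.27, adjusted p = 0.000754), with no overlap. The helicase gene Eif4a1 rose from 119 ± 11 to 296 ± 95.6 FPKM while its paralog Eif4a2 fell from 191 ± 18.3 to 152 ± 18.2 FPKM. Likewise Eef1a1, the general form of elongation factor 1A, rose from 887 ± 75.8 to 1554 ± 313 FPKM, and Eef1a2, the form of adult muscle and neurons, fell from 928 ± 56.9 to 703 ± 165 FPKM. Reads that match both paralogs were divided by a model, so the exact split is uncertain. Of 23 mitochondrial tRNA synthetase and translation factor genes 2 (8.70%) rose and 11 (47.8%) fell (median -0.19; rescaled 1 and 13). Tufm, the mitochondrial elongation factor gene, fell from 175 ± 8.33 to 117 ± 26.9 FPKM (-0.60, SE 0.12).

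Promoters of 3 of the rising synthetase genes held the letters TTNCATCA, a form of the amino acid response element bound by ATF4, on either strand within the 250 bases before a RefSeq start. They are shown because this sequence links synthetase genes to amino acid supply in textbook accounts. The capitals mark the match, each sequence is read 5′ to 3′ along the gene, and the promoters are from RefSeq on GRCm38.p6. A gene can have several starts there (32851 promoters for 27025 genes), and a match before any of them counted. The stretch shown for Aars lies within the span of the gene.
Aars (chr8:111033705-111033764, plus strand): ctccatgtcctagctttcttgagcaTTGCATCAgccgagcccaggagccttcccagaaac
Gars (chr6:55037946-55038000, plus strand): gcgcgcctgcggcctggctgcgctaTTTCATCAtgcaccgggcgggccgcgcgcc
Tars (chr15:11399659-11399698, minus strand): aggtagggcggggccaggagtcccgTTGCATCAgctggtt
Of the 19 rising synthetase genes 12 had a promoter in the table, and these 3 (25%) held the letters, against 2.4% of the 9549 tested genes with a promoter and 3.91% of all 27025. Among all genes that rose by at least 1 on the log2 scale it was 20 of 605 (3.31%). Among those that fell by at least 1 it was more, 10 of 224 (4.46%), so the letters did not mark rising genes in general. Aars rose from 22.8 ± 2.57 to 35 ± 8.43 FPKM (0.57, SE 0.15), Gars from 39.3 ± 2.21 to 62.4 ± 13.9 FPKM (0.62, SE 0.13) and Tars from 14.9 ± 1.01 to 24.1 ± 4.69 FPKM (0.63, SE 0.12). Asns, the asparagine synthetase gene, held the letters too and rose from 2.2 ± 0.569 to 9.29 ± 4.07 FPKM (1.6, SE 0.25). A match is a description of the letters and not a site.

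Transport into and out of the nucleus and into the secretory pathway rose with protein synthesis. Of 44 genes of the nuclear pore and its transport receptors 33 (75%) rose and 1 (2.27%) fell (median 0.42; rescaled 25 and 1). Ran, the GTPase that gives nuclear transport its direction, rose from 51.4 ± 4.81 to 104 ± 27.2 FPKM (0.96, SE 0.17), and its binding protein gene Ranbp1 rose from 43 ± 3.5 to 97.9 ± 31.6 FPKM (1.1, SE 0.19). The falling member was the importin gene Ipo13 (-0.57, SE 0.12). Of 32 genes of the translocon, signal peptidase and oligosaccharyl transferase, which move new proteins into the endoplasmic reticulum and process them, 23 (71.9%) rose and the others did not pass (median 0.48; rescaled 22 and 0). Spcs3, a signal peptidase subunit gene, lay between 18.2 and 23.1 FPKM in the sham hearts (median 21.1) and between 31 and 119 FPKM in the infarcted hearts (median 84.7). The groups were apart (log2 fold change 1.77, SE 0.25, adjusted p = 0.000147). Sec61b, a subunit of the translocon channel, rose from 20.8 ± 6.03 to 51.3 ± 16.7 FPKM (1.24, SE 0.23). Of 34 COPI and COPII coat and cargo receptor genes, which carry proteins between endoplasmic reticulum and Golgi, 24 (70.6%) rose and 1 (2.94%) fell (median 0.35; rescaled 16 and 3). The retrieval receptor gene Kdelr3 rose from 8.23 ± 1.02 to 22.2 ± 9.19 FPKM (1.23, SE 0.23). Of 17 genes of the CCT chaperonin and prefoldin, which fold actin and tubulin, 11 (64.7%) rose and 1 (5.88%) fell (median 0.42; rescaled 10 and 2).

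Enzymes that supply building blocks for RNA and growth were counted in 4 lists. Of 38 purine and pyrimidine synthesis and salvage genes 24 (63.2%) rose and 3 (7.89%) fell (median 0.68; rescaled 22 and 7). Uck2, the uridine-cytidine kinase of nucleotide salvage, lay between 28.6 and 48.1 FPKM in the sham hearts (median 36.1) and between 64.7 and 457 FPKM in the infarcted hearts (median 262). Heart 4 was the lowest of the infarcted hearts and still above the sham range (log2 fold change 2.61, SE 0.37, adjusted p = 0.000175). Nme1, a nucleoside diphosphate kinase gene, rose from 15.3 ± 1.53 to 53.6 ± 19.6 FPKM (1.65, SE 0.23), and Ctps, which makes CTP, rose from 18.4 ± 2.63 to 54 ± 17.2 FPKM (1.43, SE 0.22). Of 22 serine, glycine and folate one-carbon genes 11 (50.0%) rose and 4 (18.2%) fell (median 0.29; rescaled 8 and 7), so the list as a whole did not lean one way under both scalings. Its strongest members rose far: Mthfd2, the mitochondrial folate enzyme of proliferating cells, was at 0.9 to 1.98 FPKM in sham hearts (median 1.37) and at 2.9 to 17 FPKM in infarcted hearts (median 10.9) (log2 fold change 2.17, SE 0.29, adjusted p = 0.00013), with every infarcted heart above the sham range. Psat1, of serine synthesis, rose from 2.73 ± 0.437 to 17.3 ± 8.28 FPKM (2.14, SE 0.30). Of 23 polyamine and arginine genes 15 (65.2%) rose and 2 (8.70%) fell (median 0.57; rescaled 13 and 4), led after Arg1 by the spermidine synthase gene Srm (from 14.1 ± 2.23 to 47.7 ± 18.6 FPKM; 1.6, SE 0.24) and by Odc1, the first enzyme of polyamine synthesis (from 33.2 ± 2.28 to 86.9 ± 29.6 FPKM; 1.27, SE 0.23). Of 16 genes of the pentose phosphate pathway, which yields ribose and NADPH, and of other NADPH sources 8 (50.0%) rose and 4 (25%) fell (median 0.19; rescaled 7 and 6), and no direction is given for this list. G6pdx rose from 6.52 ± 0.678 to 13.7 ± 3.59 FPKM (0.93, SE 0.15) and Pgd rose from 23.2 ± 2.53 to 49.3 ± 12.3 FPKM (1.03, SE 0.15), while Nnt, which makes NADPH in mitochondria, fell from 321 ± 46.8 to 161 ± 47 FPKM (-1.03, SE 0.18).

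**Figure D3:**
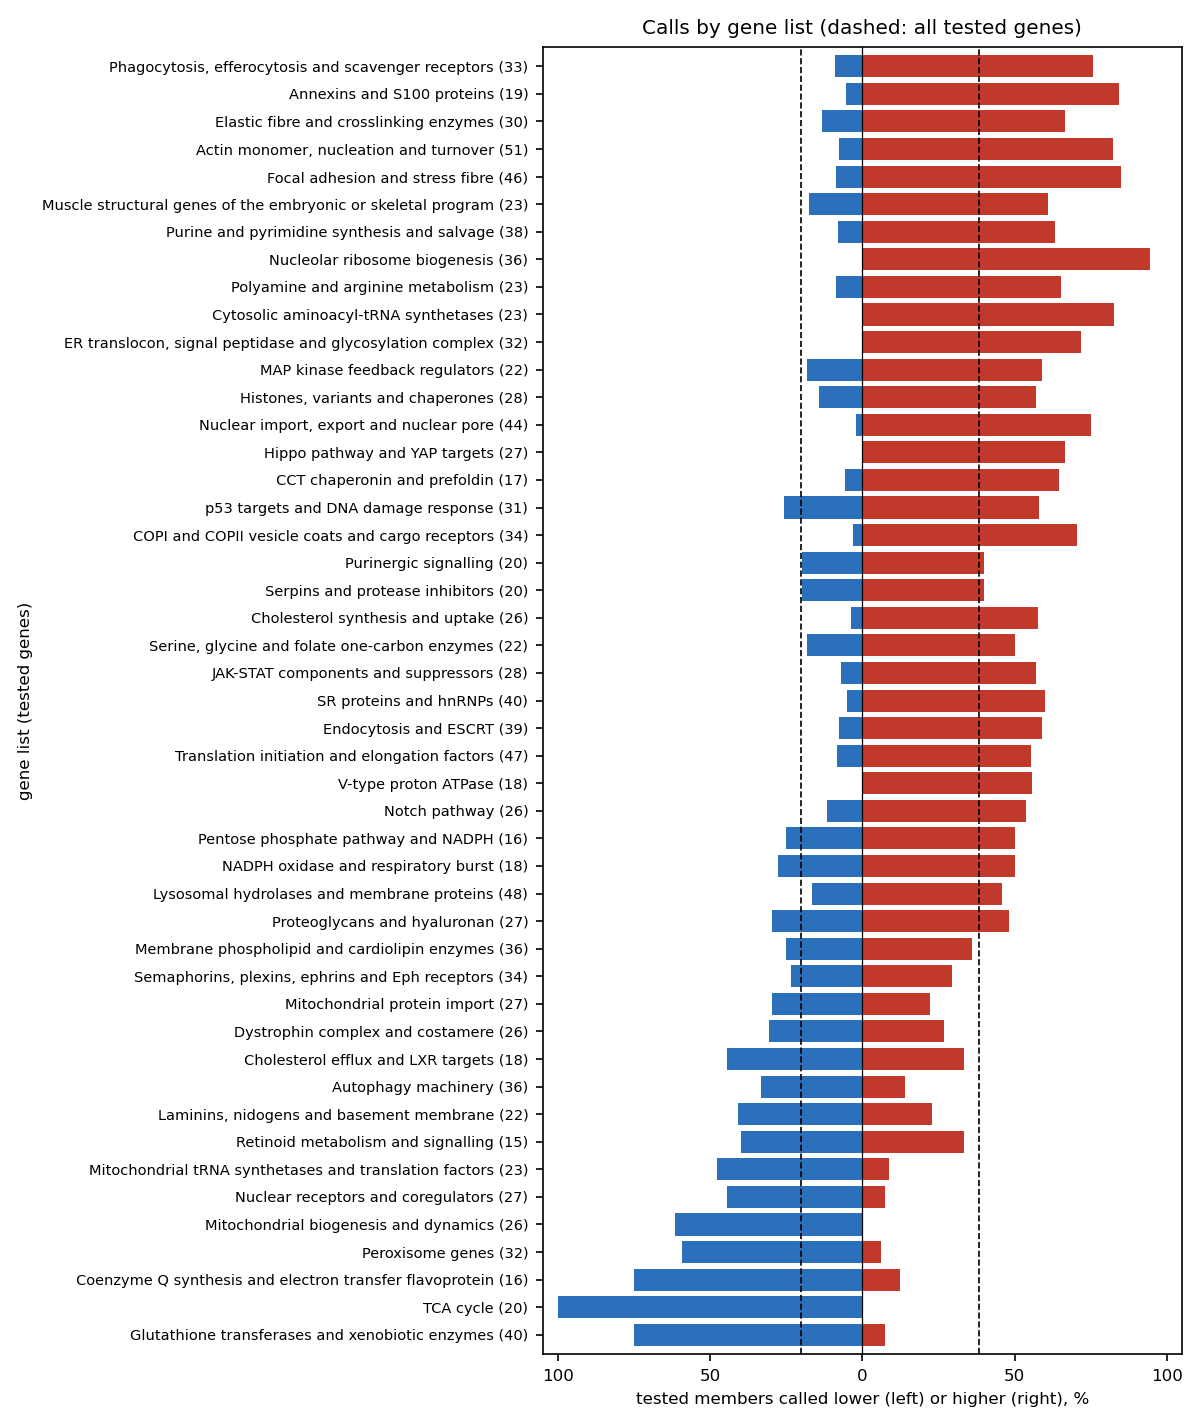
For 47 gene lists, the percentage of tested members called higher (red, to the right) and called lower (blue, to the left) at adjusted p under 0.05, ordered by median log2 fold change, with the number tested in parentheses. Dashed lines mark 38.3% and 20.1%, the shares over all genes tested. Phagocytosis genes (median 0.97) and annexin and S100 genes (0.84) stand at the top, and glutathione transferase genes (-0.69) and TCA cycle genes (-0.66) at the bottom.

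The tricarboxylic acid cycle fell as a whole. The cycle oxidizes acetyl groups in mitochondria and feeds the respiratory chain. All 20 tested genes fell (median -0.66), also with median-ratio scaling, with quantile normalization and without heart 4. Idh2, the mitochondrial NADP-dependent isocitrate dehydrogenase gene, lay between 889 and 1165 FPKM in the sham hearts (median 1112) and between 302 and 714 FPKM in the infarcted hearts (median 505). Heart 4 was the highest of the infarcted hearts, and all 6 were below every sham heart (log2 fold change -1.12, SE 0.20, adjusted p = 0.000637). Ogdh, a subunit gene of the oxoglutarate dehydrogenase complex, fell from 696 ± 77.9 to 394 ± 138 FPKM (-0.88, SE 0.19), and Sdha, a subunit shared with the respiratory chain, fell from 516 ± 49.8 to 309.5 ± 79.3 FPKM (-0.77, SE 0.15). The median of the 20 genes was -0.84, -0.90, -0.62, -0.11, -0.48 and -1.10 in infarcted hearts 1 to 6. The summed level of cardiomyocyte markers was lower in the same hearts, and its part in these falls was not tested.

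Neighbouring mitochondrial functions were counted in 4 lists. Of 16 genes of coenzyme Q synthesis and the electron transfer flavoprotein, which pass electrons from fat oxidation to the chain, 12 (75%) fell and 2 (12.5%) rose (median -0.58; rescaled 13 and 1). Etfdh, the flavoprotein dehydrogenase gene, was at 261 to 336 FPKM in sham hearts (median 313) and at 65.7 to 246 FPKM in infarcted hearts (median 120.1) (log2 fold change -1.35, SE 0.27, adjusted p = 0.00108), with no overlap. Coq10a fell from 238 ± 18.8 to 106 ± 48.6 FPKM (-1.26, SE 0.22), whereas Coq8b rose from 6.57 ± 1.04 to 13.4 ± 2.25 FPKM (0.93, SE 0.12). Of 26 biogenesis and dynamics genes 16 (61.5%) fell and the others did not pass (median -0.31; rescaled 20 and 0), and without heart 4 18 fell and 2 rose. Ppargc1a, the coactivator gene PGC-1 alpha that drives mitochondrial biogenesis, lay between 17.8 and 25.2 FPKM in the sham hearts (median 23.3) and between 5.52 and 14.6 FPKM in the infarcted hearts (median 10.3) (log2 fold change -1.17, SE 0.18, adjusted p = 0.000254). All 6 infarcted hearts were below the sham range. Pink1, a kinase gene of mitochondrial quality control, fell from 289.9 ± 38.3 to 159 ± 60.9 FPKM (-0.93, SE 0.20), and the fusion gene Mfn1 fell from 128 ± 17 to 79 ± 16.6 FPKM (-0.70, SE 0.14). Of 27 genes of the import machinery 6 (22.2%) rose and 8 (29.6%) fell (median 0.06; rescaled 1 and 13), and 5 fell without infarcted heart 3 or 6. Of 32 peroxisome genes 19 (59.4%) fell and 2 (6.25%) rose (median -0.39; rescaled 26 and 1).

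Genes of detoxification had the lowest median of the 48 lists of processes, -0.69. These enzymes oxidize or conjugate foreign and endogenous compounds. Of 40 glutathione transferase and xenobiotic enzyme genes 30 (75%) fell and 3 (7.5%) rose (rescaled 34 and 2; without heart 4 32 and 5). Ces1d, a carboxylesterase and lipase gene, lay between 40.8 and 58 FPKM in the sham hearts (median 49.5) and between 4 and 24.5 FPKM in the infarcted hearts (median 10.1). The groups did not overlap (log2 fold change -2.26, SE 0.31, adjusted p = 0.000128). Adh1, an alcohol and retinol dehydrogenase gene, fell from 28.9 ± 10.7 to 7.57 ± 4.25 FPKM (-1.85, SE 0.32), Sult1a1, a sulfotransferase gene, fell from 56.6 ± 12.4 to 19.2 ± 12.4 FPKM (-1.73, SE 0.36), and Gsta3 fell from 8.59 ± 4.91 to 2.37 ± 1.54 FPKM (-1.45, SE 0.37). All 6 tested genes whose symbols begin with Gstm fell (median -0.55), and these near-identical genes share reads. The rises were Por, the electron donor of cytochromes P450 (from 28.3 ± 4.72 to 41.5 ± 7.85 FPKM; 0.53, SE 0.14), Gsto1 (0.52, SE 0.14) and Cyp1b1 (0.41, SE 0.15). The call of Cyp1b1 was lost with median-ratio scaling (adjusted p = 0.0861 by limma), with quantile normalization (0.146) and without sham heart 1 or 4 or infarcted heart 3 or 6 (0.0558 to 0.0615). Of 15 retinoid genes 5 (33.3%) rose and 6 (40.0%) fell (median -0.15; rescaled 5 and 8). Aldh1a2, a retinoic acid synthase gene, rose from 10.3 ± 3.5 to 46.5 ± 16.5 FPKM (2.02, SE 0.28), and its paralog Aldh1a1 fell from 17 ± 5.57 to 5.63 ± 2.33 FPKM (-1.44, SE 0.25).

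The actin cytoskeleton and its anchors rose broadly. Of 51 genes of actin monomer binding, nucleation and turnover 42 (82.4%) rose and 4 (7.84%) fell (median 0.81; rescaled 37 and 5), and 30 of the 51 were above the sham range in every infarcted heart, as were 16.1% of all genes. Of 46 focal adhesion and stress fibre genes 39 (84.8%) rose and 4 (8.70%) fell (median 0.75; rescaled 32 and 5). Flnc, the muscle filamin gene, lay between 27.8 and 35.7 FPKM in the sham hearts (median 31.7) and between 55.1 and 373 FPKM in the infarcted hearts (median 166). The groups did not overlap (log2 fold change 2.29, SE 0.34, adjusted p = 0.000209). Actn1, the non-muscle alpha-actinin gene, rose from 18.1 ± 1.63 to 107 ± 64.9 FPKM (2.25, SE 0.36), and Itga5, the fibronectin receptor chain gene, rose from 25.4 ± 1.85 to 108 ± 49.8 FPKM (1.89, SE 0.29). Enah, which extends actin filaments, rose from 22.7 ± 2.72 to 92.4 ± 40.4 FPKM (1.85, SE 0.27). Capg (2.16, SE 0.21), Coro1a (1.87, SE 0.21) and Lcp1 (1.68, SE 0.22) encode actin regulators of leukocytes, whose markers rose in the same hearts. Gsn, the gelsolin gene and a marker of resting fibroblasts, fell from 582 ± 50.2 to 212 ± 107 FPKM (-1.59, SE 0.26).

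Serum response factor binds the CArG box, and actin genes are its known targets, so promoters of rising actin and adhesion genes that hold this box are shown. The capitals mark the box.
Actg1 (chr11:120348551-120348610, minus strand): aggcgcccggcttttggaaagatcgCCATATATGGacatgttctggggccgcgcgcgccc
Vcl (chr14:20929148-20929207, plus strand): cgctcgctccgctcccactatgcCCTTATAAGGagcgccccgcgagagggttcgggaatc
Cnn2 (chr10:79988519-79988578, plus strand): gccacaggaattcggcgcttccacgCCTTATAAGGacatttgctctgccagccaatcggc
Acta1 (chr8:123894814-123894873, minus strand): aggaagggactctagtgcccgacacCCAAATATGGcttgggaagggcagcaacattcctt
Among the 80 rising genes of both lists 61 had a promoter in the table, and 5 of them (8.2%) held the box within 250 bases before a start (Actg1, Arpc4, Cnn2, Fermt2 and Vcl), against 1.47% of tested genes and 1.62% of all genes with a promoter. Among all genes that rose by at least 1 on the log2 scale it was 12 of 605 (1.98%), and among those that fell by at least 1 it was 2 of 224 (0.893%). Actg1, a cytoplasmic actin gene, rose from 223 ± 15.8 to 702 ± 242 FPKM (1.55, SE 0.24). Vcl, the vinculin gene, rose from 35.7 ± 3.18 to 62.1 ± 15.6 FPKM (0.75, SE 0.15), and the calponin gene Cnn2 rose from 34.8 ± 2.53 to 93 ± 39.5 FPKM (1.27, SE 0.25). Acta1, the skeletal actin gene that is also expressed in the fetal heart, lay between 98.1 and 386 FPKM in the sham hearts (median 244) and between 261 and 1800.1 FPKM in the infarcted hearts (median 558). Its values were scattered within both groups, and heart 4 was among the higher ones at 817 FPKM (log2 fold change 1.31, SE 0.45, adjusted p = 0.0229). The call was lost without sham heart 2 (1.07, adjusted p = 0.054).

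Muscle structural genes of embryonic or skeletal type mostly rose, and costamere genes were split. Of 23 structural genes 14 (60.9%) rose and 4 (17.4%) fell (median 0.73; rescaled 13 and 4). Xirp2, which encodes an actin-binding protein of the intercalated disc, lay between 30.3 and 43.9 FPKM in the sham hearts (median 35.3) and between 70.2 and 395 FPKM in the infarcted hearts (median 223) (log2 fold change 2.37, SE 0.35, adjusted p = 0.000225), with no overlap. Synpo2l rose from 53.4 ± 4.39 to 236 ± 103 FPKM (1.97, SE 0.29), the intermediate filament gene Nes rose from 5.66 ± 0.482 to 25.4 ± 12.2 FPKM (1.82, SE 0.29), and Vim, the vimentin gene of mesenchymal cells, rose from 209 ± 22 to 611 ± 197 FPKM (1.48, SE 0.20). Myh7b fell from 16.7 ± 1.82 to 4.53 ± 4.9 FPKM (-2.04, SE 0.38), and the thin-filament gene Lmod2 fell from 511 ± 51.1 to 310.1 ± 72.8 FPKM (-0.74, SE 0.14). Of 26 dystrophin complex and costamere genes 7 (26.9%) rose and 8 (30.8%) fell (median -0.03; rescaled 4 and 10), and 4 or 5 fell without sham heart 6 or infarcted heart 1, 2 or 6. The membrane repair genes Dysf (0.67, SE 0.09) and Myof (0.97, SE 0.14) and the caveolin gene Cav3 (1.03, SE 0.18) rose, and the sarcoglycan gene Sgca (-0.87, SE 0.22) fell.

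Matrix genes divided by type. Of 30 elastic fibre and crosslinking genes 20 (66.7%) rose and 4 (13.3%) fell (median 0.81; rescaled 18 and 4). Lox, the lysyl oxidase gene that crosslinks collagen and elastin, lay between 3.96 and 10.5 FPKM in the sham hearts (median 5.41) and between 8.31 and 47.2 FPKM in the infarcted hearts (median 24.2). Of the infarcted hearts 5 were above the sham range and heart 4, at 8.31 FPKM, was within it (log2 fold change 1.7, SE 0.33, adjusted p = 0.000899). Fn1, the fibronectin gene, rose from 13.6 ± 3.54 to 42.6 ± 19.6 FPKM (1.48, SE 0.27) and Ltbp2 rose from 0.707 ± 0.294 to 6.51 ± 4.34 FPKM (1.95, SE 0.32), whereas Eln, the elastin gene itself, fell from 35.6 ± 10.5 to 23.7 ± 3.28 FPKM (-0.52, SE 0.18), a call that was lost without sham heart 2, 5 or 6 or infarcted heart 1 (adjusted p 0.0541 to 0.0607, limma). Of 27 proteoglycan and hyaluronan genes 13 (48.1%) rose and 8 (29.6%) fell (median 0.13; rescaled 13 and 8). Those that rose included the hyaluronan receptor gene Cd44 (from 5.96 ± 0.514 to 29.3 ± 11.3 FPKM; 2.02, SE 0.23), Vcan, the versican gene (from 3.44 ± 0.68 to 11.9 ± 3.78 FPKM; 1.51, SE 0.17), and Prg4, the lubricin gene (from 8.59 ± 2.08 to 52.9 ± 31.3 FPKM; 2.33, SE 0.31). Those that fell included the small leucine-rich proteoglycan genes of resting connective tissue, Dcn (from 454 ± 40.2 to 221 ± 83.4 FPKM; -1.12, SE 0.21), Prelp (-1.31, SE 0.28) and Ogn (-0.98, SE 0.21). Of 22 laminin and basement membrane genes 5 (22.7%) rose (8 without heart 4) and 9 (40.9%) fell (median -0.12; rescaled 4 and 9), with Fbln1, the fibulin 1 gene, falling from 66.3 ± 6.6 to 29.7 ± 12.3 FPKM (-1.23, SE 0.23).

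Annexins and S100 proteins, which bind calcium and membranes, rose in 16 of 19 tested genes (84.2%) and fell in 1 (5.26%) (median 0.84; rescaled 15 and 2, without heart 4 16 and 2). Anxa2 lay between 59.6 and 65.6 FPKM in the sham hearts (median 64.3) and between 106 and 376 FPKM in the infarcted hearts (median 293). All infarcted hearts were above the sham range (log2 fold change 2.0, SE 0.24, adjusted p = 6.37e-05). S100a11 rose from 146 ± 17 to 486 ± 177 FPKM (1.64, SE 0.23), whereas S100a1, the form of cardiomyocytes, fell from 1077 ± 201 to 701 ± 189.8 FPKM (-0.64, SE 0.16).

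Uptake of dead cells and debris was represented by a list in which 25 of 33 genes (75.8%) rose and 3 (9.09%) fell (rescaled 22 and 4), with the highest median of the 48 lists of processes, 0.97. Msr1, the macrophage scavenger receptor gene, lay between 1.67 and 3.76 FPKM in the sham hearts (median 2.42) and between 10.7 and 27.1 FPKM in the infarcted hearts (median 14). The spread was small for so large a change (log2 fold change 2.3, SE 0.19, adjusted p = 1.37e-05). Lilrb4a, an inhibitory receptor gene of myeloid cells, rose from 15.8 ± 3.58 to 78.6 ± 25.9 FPKM (2.2, SE 0.24), and Cd300lf, a phospholipid receptor gene of myeloid cells, rose from 1.11 ± 0.74 to 12.1 ± 4.25 FPKM (2.62, SE 0.25). Cd163, a scavenger receptor of resident macrophages, fell from 5.33 ± 0.832 to 2.51 ± 1.06 FPKM (-0.91, SE 0.20), and so did Gas6, a bridge to apoptotic cells (-0.50, SE 0.16). Cd36, the fatty acid translocase that cardiomyocytes and endothelial cells also express, fell from 754 ± 82.4 to 402 ± 131 FPKM (-0.97, SE 0.19). In this list heart 4 was less apart, with a median of 0.61 against 0.71 to 1.34 in the other infarcted hearts. Monocyte and neutrophil markers rose in the same hearts, and their part in these rises was not tested.

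Of 48 lysosome genes 22 (45.8%) rose and 8 (16.7%) fell (median 0.15; rescaled 18 and 14), which is near the shares over all genes. Ctss, a cathepsin gene of antigen-presenting cells, rose from 36.4 ± 8.34 to 151 ± 48.6 FPKM (1.99, SE 0.21), and Ctsz rose from 31 ± 4.34 to 81.2 ± 17.9 FPKM (1.34, SE 0.15), while Ctsf fell from 27 ± 0.957 to 12.3 ± 5.67 FPKM (-1.17, SE 0.21). Of 18 subunit genes of the proton pump that acidifies lysosomes 10 (55.6%) rose and none fell (median 0.21; rescaled 7 and 4, without heart 4 11 and 2), led by Atp6v1h (from 11.6 ± 1.01 to 21.4 ± 5.36 FPKM; 0.79, SE 0.16). Of 36 autophagy genes 5 (13.9%) rose and 12 (33.3%) fell (median -0.08; rescaled 2 and 18, without heart 4 8 and 14), with falls of the cargo receptor genes Optn (from 38.5 ± 7.5 to 20 ± 6.04 FPKM; -0.94, SE 0.17) and Calcoco1 (from 78.1 ± 3.85 to 40.9 ± 16.4 FPKM; -1.0, SE 0.19) and of Map1lc3b, whose protein coats autophagosomes (-0.72, SE 0.15). Of 18 NADPH oxidase and respiratory burst genes 9 (50.0%) rose and 5 (27.8%) fell (median 0.18; rescaled 8 and 5). The phagocyte NADPH oxidase genes Ncf4 (1.56, SE 0.24) and Ncf1 (1.27, SE 0.20) rose, and the peroxide-removing genes Prdx3 (-0.62, SE 0.12) and Prdx5 (-0.51, SE 0.14) fell.

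Lipid handling outside fat oxidation was counted in lists of sterol genes. Of 26 cholesterol synthesis and uptake genes 15 (57.7%) rose and 1 (3.85%) fell (median 0.30; rescaled 10 and 2). Sqle, an oxygenase of sterol synthesis, rose from 0.79 ± 0.234 to 2.96 ± 1.07 FPKM (1.1, SE 0.18), and Fdft1, the squalene synthase gene, fell from 15.5 ± 2.24 to 8.37 ± 1.7 FPKM (-0.82, SE 0.12). Among 18 efflux genes and targets of the liver X receptor 6 (33.3%) rose and 8 (44.4%) fell (median -0.08; rescaled 6 and 9). Ch25h, which makes 25-hydroxycholesterol, was at 0.43 to 2.16 FPKM in sham hearts (median 1.01) and at 5.62 to 26 FPKM in infarcted hearts (median 16) (log2 fold change 2.95, SE 0.28, adjusted p = 2.06e-05), and Abca1, the main efflux pump gene, fell from 4.57 ± 0.823 to 3.1 ± 0.624 FPKM (-0.44, SE 0.12).

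Signalling genes were described by pathway. In the Hippo pathway and its YAP target genes 18 of 27 (66.7%) rose and the others did not pass (median 0.42; rescaled 15 and 1). Cyr61, a YAP target that encodes a matricellular protein, lay between 27.7 and 36.8 FPKM in the sham hearts (median 32.9) and between 35.8 and 209 FPKM in the infarcted hearts (median 128) (log2 fold change 1.77, SE 0.33, adjusted p = 0.000721). Heart 4, at 35.8 FPKM, was the one infarcted heart within the sham range. Ctgf, another such target, rose from 43 ± 11.9 to 391 ± 227 FPKM (2.87, SE 0.46), with 5 of 6 infarcted hearts above the sham range. Of 22 feedback regulators of MAP kinases 13 (59.1%) rose and 4 (18.2%) fell (median 0.46; rescaled 11 and 5). Ier3 rose from 29.6 ± 4.28 to 159 ± 61.7 FPKM (2.26, SE 0.29) and Dusp5 rose from 3.05 ± 1.09 to 8.97 ± 4.25 FPKM (1.22, SE 0.29), while Dusp18 fell from 16.5 ± 4.08 to 5.78 ± 1.69 FPKM (-1.36, SE 0.18) and Spry1 fell from 33.6 ± 4.65 to 21.9 ± 2.09 FPKM (-0.59, SE 0.10). Of 31 p53 target and DNA damage genes 18 (58.1%) rose and 8 (25.8%) fell (median 0.40; rescaled 18 and 10). Cdkn1a, the cell cycle inhibitor gene p21, rose from 32.8 ± 14.8 to 86.4 ± 30.5 FPKM (1.38, SE 0.34) and Gadd45g rose from 11 ± 2.16 to 63.5 ± 33.2 FPKM (2.17, SE 0.42), but Gadd45a fell from 19 ± 3.92 to 9.78 ± 3.54 FPKM (-0.94, SE 0.21) and Sesn1 fell from 56.2 ± 5.69 to 24.9 ± 13.7 FPKM (-1.29, SE 0.26).

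Of 28 JAK-STAT genes 16 (57.1%) rose and 2 (7.14%) fell (median 0.29; rescaled 12 and 4), with Stat2 rising from 7.31 ± 0.769 to 17.5 ± 3.13 FPKM (1.14, SE 0.11). Of 26 Notch pathway genes 14 (53.8%) rose and 3 (11.5%) fell (5 fell without heart 4), but 7 rose and 7 fell rescaled, so no direction is given for that list. Of 27 nuclear receptor and coregulator genes 12 (44.4%) fell and 2 (7.41%) rose (median -0.25; rescaled 15 and 2). Ppara, the receptor that drives fatty acid oxidation genes, fell from 9.42 ± 1.98 to 5.04 ± 1.59 FPKM (-0.81, SE 0.18), and the mineralocorticoid receptor gene Nr3c2 fell from 2.77 ± 0.29 to 1.22 ± 0.638 FPKM (-0.81, SE 0.17), while the immediate early receptor gene Nr4a1 rose from 5.96 ± 1.38 to 11.8 ± 3.74 FPKM (0.85, SE 0.18). Semaphorins, ephrins and their receptors had 10 rises (29.4%) and 8 falls (23.5%) among 34 genes, but 8 and 10 rescaled, so no direction is given. The largest were the rise of Sema3f (from 7.17 ± 1.37 to 26.1 ± 9.31 FPKM; 1.67, SE 0.22) and the fall of the ephrin gene Efnb3 (from 38.9 ± 6.9 to 15.4 ± 16.2 FPKM; -1.88, SE 0.53).

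**Figure D4:**
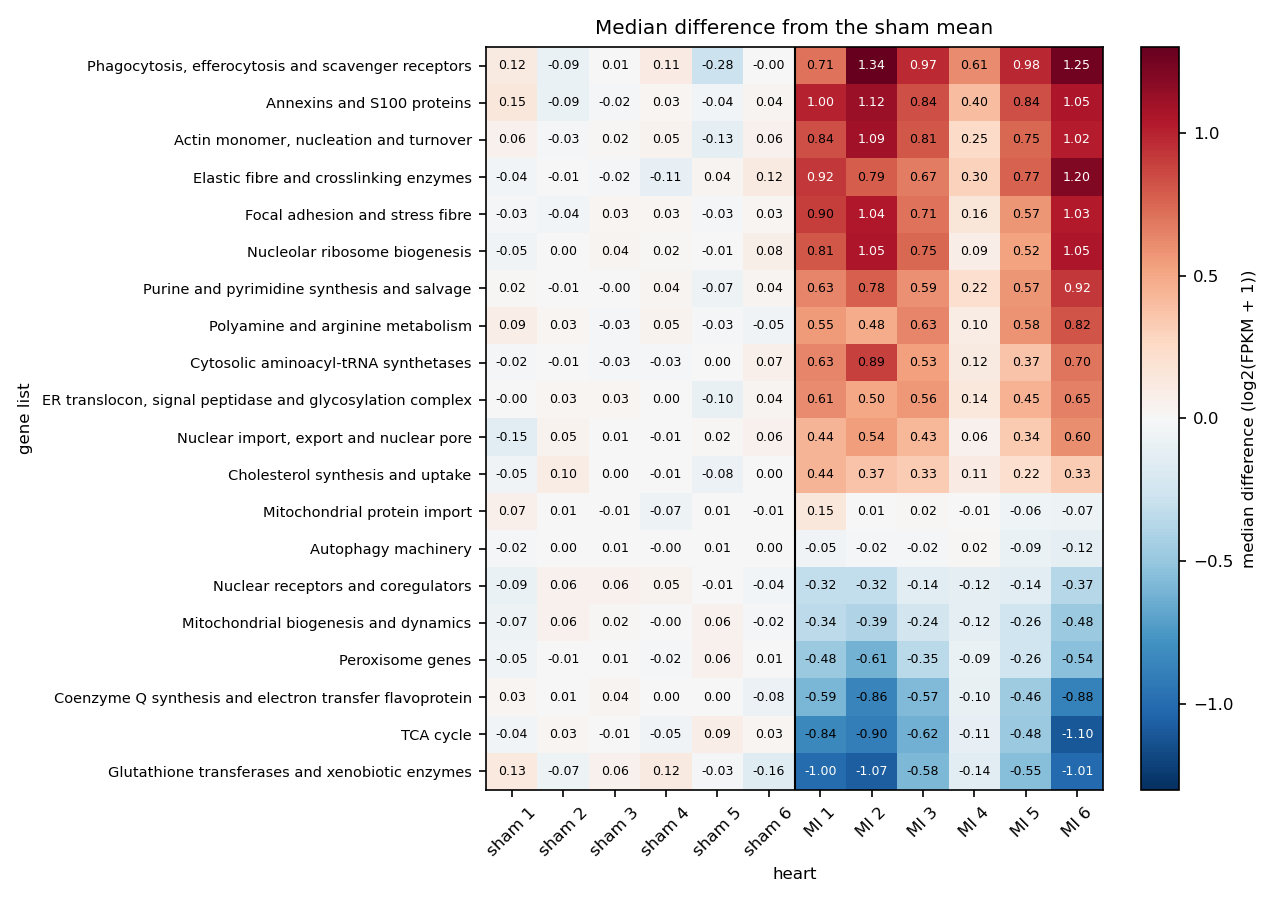
Median log2(FPKM + 1) difference from the sham mean for 20 gene lists (rows) in each of the 12 hearts (columns), red for higher and blue for lower, with the value written in each cell. Infarcted heart 4 is pale in most rows, at -0.11 for the TCA cycle and 0.09 for nucleolar genes, and closer to the other infarcted hearts for phagocytosis genes, at 0.61.

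Symbol families, taken as genes that share the letters before the first digit, gave 310 groups of at least 6 tested genes. The lowest medians were those of the complex I families Ndufs (8 of 8 fell, median -0.66) and Ndufb (11 of 11, median -0.58) and of the Dhrs dehydrogenases (5 of 8 fell and 2 rose). The highest were those of the Cxcl chemokines (6 of 9 rose, median 1.98), Tubb tubulins (6 of 7 rose and 1 fell, median 1.93), Slfn (6 of 7 rose, median 1.48) and Ms4a genes with their neighbours (8 of 9 rose and 1 fell, median 1.36). The Csf family of colony-stimulating factors and receptors rose in 6 of 6 genes (median 1.15). Tubb6 rose from 18.7 ± 1.43 to 145 ± 68.1 FPKM (2.68, SE 0.35). Where members of such a family resemble one another in sequence, as the tubulins do, the deposited values divide shared reads by a model. A shared symbol does not by itself mean a shared sequence.

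In 81 genes every sham heart was below 1 FPKM and every infarcted heart at 1 or more, and 13 genes showed the reverse. The ones with the highest level in infarcted hearts included Selp, the gene of the platelet and endothelial adhesion molecule P-selectin, Inhba, which encodes an activin subunit, and Adam12, a metalloprotease gene of regenerating muscle and activated fibroblasts. Selp lay between 0.45 and 0.83 FPKM in the sham hearts (median 0.635) and between 3.53 and 20.5 FPKM in the infarcted hearts (median 6.69). Inhba lay between 0.16 and 0.74 FPKM in the sham hearts (median 0.23) and between 1.21 and 14.1 FPKM in the infarcted hearts (median 7.22). Since these genes were picked for the separation, no test is given for them here.

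Other genes did not move measurably. Of the genes not called, 440 had a mean of at least 50 FPKM. Those with the narrowest 95% intervals around 0 were Cops4, of the COP9 signalosome, Eef1d, of the elongation factor 1 complex, and the mitochondrial ribosomal gene Mrps7. Cops4 lay between 49.8 and 56.4 FPKM in the sham hearts (median 53.5) and between 49.8 and 55 FPKM in the infarcted hearts (median 53.2), and the interval of its log2 fold change ran from -0.14 to 0.12. Eif3f, Lonp1, Pfdn6 and Hmox2 belonged to the same 10 genes.

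Infarcted heart 4 was compared with the other 5 gene by gene, as a description, because it carried less of the change. Over the 785 genes that rose by at least 1, its difference from the sham mean was a median of 38.1% of the mean difference of the other 5 hearts, with quartiles of 26.1% and 54.9%, and over the 292 genes that fell by at least 1 it was 21.0%. In 70 of the 785 genes heart 4 reached at least 75% of the other 5, a limit set after the values were seen. The 70 included interferon-stimulated genes, of which 4 are described here, chosen after their values were seen. Ifit3, which encodes an antiviral protein with tetratricopeptide repeats, was highest in heart 4, at 48.3 FPKM, and had medians of 12.5 FPKM in sham and 39.5 FPKM in infarcted hearts (1.37, SE 0.23). Infarcted heart 6, at 17 FPKM, was within the sham range of Ifit3, which reached 17.45 FPKM. Isg15, which encodes a ubiquitin-like modifier, lay between 5.47 and 11 FPKM in the sham hearts (median 6.79) and between 22.9 and 45.6 FPKM in the infarcted hearts (median 30.7), with heart 4 at 30.5 FPKM (log2 fold change 2.06, SE 0.17, adjusted p = 1.37e-05). Bst2, the tetherin gene, rose from 26 ± 7.8 to 73.3 ± 11.5 FPKM (1.5, SE 0.17), and Cxcl10, an interferon-induced chemokine gene with the smallest adjusted p of all genes, rose from 0.537 ± 0.265 to 9.56 ± 1.94 FPKM (log2 fold change 2.78, SE 0.14, adjusted p = 2.23e-07). In Cxcl10 heart 4 was the lowest infarcted heart, at 6.87 FPKM against 8.83 to 12.83 FPKM in the others, and above the sham range.

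Promoters of 6 rising genes that hold the interferon element are shown, so that its letters can be read. The interferon-stimulated response element is bound by a complex that holds STAT2 and IRF9, and it was searched as GAAA repeated once with any 2 bases between the copies, on both strands, in the 250 bases before any RefSeq start of the gene. The stretch shown for Ifit3 lies within the span of the gene, and that for Oas1a does so in part. Capitals mark the matches, which overlap in Isg15, Bst2 and Oas1a.
Cxcl10 (chr5:92349068-92349127, minus strand): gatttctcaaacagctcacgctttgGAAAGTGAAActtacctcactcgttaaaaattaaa
Isg15 (chr4:156200850-156200921, minus strand): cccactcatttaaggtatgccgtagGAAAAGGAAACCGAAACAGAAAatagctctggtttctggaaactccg
Ifit3 (chr19:34583348-34583441, plus strand): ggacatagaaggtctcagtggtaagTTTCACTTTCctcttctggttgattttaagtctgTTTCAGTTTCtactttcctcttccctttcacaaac
Stat2 (chr10:128270251-128270310, plus strand): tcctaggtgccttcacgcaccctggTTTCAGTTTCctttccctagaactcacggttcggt
Bst2 (chr8:71537562-71537627, minus strand): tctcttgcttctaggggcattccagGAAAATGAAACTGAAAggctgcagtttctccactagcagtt
Oas1a (chr5:120907526-120907570, minus strand): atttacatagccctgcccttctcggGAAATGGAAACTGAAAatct
Of the 70 genes 55 had a promoter in the table, and 22 of these (40%) held the element. Among the other 715 genes that rose by at least 1 it was 27 of 550 (4.91%), among the genes that fell by at least 1 it was 6 of 224 (2.68%), and among all tested genes 313 of 9549 (3.28%). Both gene sets were formed from the measured values, so these shares are a description with no test.

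**Figure D5:**
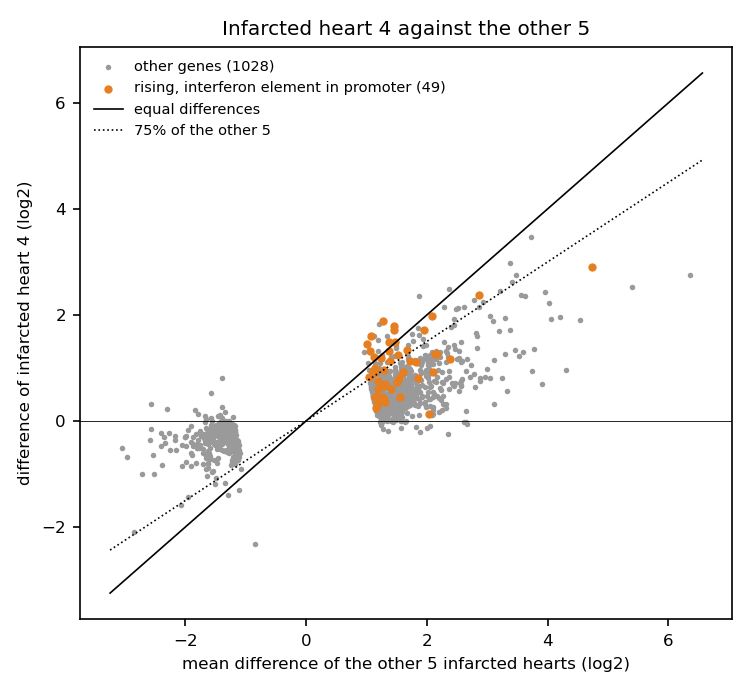
For the 1077 genes called with a log2 fold change of at least 1 in either direction, the difference of infarcted heart 4 from the sham mean (vertical axis, log2) against the mean difference of the other 5 infarcted hearts (horizontal axis, log2). The solid line marks equal differences, most points lie between it and 0, and the 49 rising genes with the interferon element in the promoter are drawn in orange, 22 of them on or above the dotted line at 75%.

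Last, the mix of transcripts within a gene was compared, as each transcript's share of its gene's summed FPKM. Of 5263 transcripts tested 29 (0.551%) were called at adjusted p under 0.05. Without infarcted heart 4, 110 were called, and without any other single library 7 to 42. Transcripts of 4 genes were called whichever library was left out, but with the replicate number as a block no transcript was called (smallest adjusted p = 0.0665, limma). In Eno1, which encodes the glycolytic enzyme enolase 1, the predicted transcript fell from 73.0 ± 4.3% of the gene to 34.1 ± 7.3% (SD, n = 6 each; adjusted p = 0.00124), and the curated one rose from 27.0 ± 4.3% to 65.8 ± 7.3%. The shares did not overlap: the predicted transcript held 69.7% to 81.3% in sham hearts and 27.4% to 47.2% in infarcted hearts, while the gene as a whole rose from 113 ± 5.65 to 287 ± 95.2 FPKM (1.26, SE 0.20). In Tspan4, a tetraspanin gene, one transcript fell from 72.5 ± 6.3% to 41.5 ± 3.8% and another rose from 24.7 ± 6.2% to 53.7 ± 4.2%, again without overlap (adjusted p = 0.00477 and 0.00746). In Trak1, which encodes an adaptor that moves mitochondria along microtubules, a predicted transcript fell from 35.0 ± 8.3% to 2.38 ± 5.8% (adjusted p = 0.00746). Its estimated share was 26% to 47.4% in sham hearts and 0% to 14.3% in infarcted hearts, with the highest infarcted heart far from the mean. In Ttll1, a tubulin glutamylase gene that also fell as a whole, a predicted transcript fell from 90.7 ± 1.5% to 61.0 ± 13.6% (adjusted p = 0.0105). In Rcan1, which encodes a regulator of the phosphatase calcineurin, one transcript rose from 58.2 ± 13.3% to 87.8 ± 6.5% (adjusted p = 0.035), and this call was kept in 3 of the 12 fits that left out a library. Single reads of 50 bases rarely tell transcripts apart, so these shares are estimates of the deposited model.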

How the data were processed

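Per the labels' protocols, apex RNA was made into capture libraries for coding RNA (RNA Access) and read as single reads of 50 bases. Listed in the submitters' processing notes, with no role given, are RSEM 1.2.12, Bowtie2 2.2.5 and DESeq2 1.4.5, and the build GRCm38.p6. The FPKM values, 1 per gene and transcript, were used as the authors deposited them, rounded to 2 decimals. The unit is not named in the headers and was taken as FPKM because, over 24653 transcripts matched for length, the sum of value times length varied little between libraries (coefficient of variation 0.789%, against 3.81% for the sum of values). Depth was estimated from the spacing of low values. FPKM without counts gives no counting interval.

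Genes were tested with limma 3.58.1 in R 4.3.3 on log2(FPKM + 1), which understates the change of low genes, with an intensity trend, 6 against 6 libraries, no covariate, and Benjamini-Hochberg adjustment. Transcript shares were tested as log2 odds with a pseudocount of 0.5, for genes with a summed FPKM of at least 10 in every library and mean shares of 10% to 90%. On simulated data with log2 changes of 1 and 2, limma recovered 93% and 99% of changed genes (11969 genes, 9 false calls) and, for transcripts (832 in the simulation), 65% and 83% with 2 false calls. The gene simulation changed few genes, and both simulations gave the groups the same spread and shifted all infarcted hearts alike. The measured hearts differed in spread and in size of change, so these rates check the method and do not describe the measured data. Named genes were those of largest change, smallest adjusted p or largest change within a list, and those switched on or flat. Others were called with only 1 or 2 infarcted hearts outside the sham range. Some genes and 1 list are not reported here. The comparison, the 48 lists and the marker lists were chosen with earlier results of these data known. Counts of a list are read against the shares over all genes, and no list was tested. Coordinates came from RefSeq (19051 genes, 99.2%, matched). Motifs were searched in RefSeq promoters, and a gene with several promoters counted if any of them held a match. The main test did not pair the libraries by their submitted numbers. Deviations of same-numbered libraries correlated above 0.1 in 1 of 6 pairs, which does not settle whether the numbers mark pairs.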

Additional observations from a re-analysis of the deposited data

Results flagged for a closer look

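Single hearts stood far from the other 5 of their group, by the gap to the nearest heart against the whole range on the log2 scale (Dixon's limit 0.625), in 23 checked values (6.15% of those checked). Chance flags about 1 in 20. Of the 23, 13 were in infarcted heart 4. That heart had 36.4% of genes outside the sham range, where the others had 61.5% to 75.1%.

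Its FPKM was below the other 5 infarcted hearts in these genes that rose: Cdkn1a (29.9, others 81.1 to 119), Ier3 (47.9, others 144 to 222), Inhba (1.21, others 6.97 to 14.1), Ctps (22.6, others 49.9 to 73.5), Anxa2 (106, others 236 to 376), Aldh1a2 (17.1, others 42.8 to 66.9), Atp6v1h (11.6, others 20.1 to 26.8), Lpin2 (2.2, others 3.14 to 3.62) and Srsf3 (31.3, others 44.7 to 53.6). It was above the others in the falling genes S100a1 (1079, others 543 to 652), Prdx5 (538, others 301 to 360) and Ttll1 (27.7, others 10.9 to 14.9). Infarcted heart 6 was low in Mylk4 (4.56, others 10.0 to 14.4).

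Among sham hearts, heart 1 stood apart in S100a1 (1467 FPKM, others 925 to 1090.1), Ppargc1a (17.8, others 22.4 to 25.2) and Hmgb3 (42.4, others 52.9 to 56.8), and heart 2 in Hmox2 (78.2, others 67.6 to 70.9). Sham heart 5 stood apart in Ctsf (29.0, others 26.4 to 27.0), Lilrb4a (9.23, others 15.5 to 20.0) and P2ry6 (4.11, others 7.57 to 8.73), and sham heart 6 in Cd163 (6.95, others 4.55 to 5.20) and Map1lc3b (158, others 176 to 180).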

How the results depend on the processing

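The number of rising genes (4583) stayed within 1.5 times under all 23 alternatives, from 3189 with quantile normalization to 5109 with no filter on low values. The number of falling genes (2408) did so except with quantile normalization (3693), and was 3416 with median-ratio scaling. Without one heart at a time the counts were 4128 to 5063 and 2039 to 2754, both highest without infarcted heart 4. Of 184 named genes 180 kept their call or lack of one under every alternative that tested them, none reversed, and Acta1, Cyp1b1, Ddit4 and Eln lost theirs as given above. Ddit4 also lost its call with array weights and, like Cyp1b1, with all 3 groups in the fit. Of 2208 list counts 127 moved by over 1.5 times, mostly counts of a few genes in the lesser direction.

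Transcript calls were the least stable: 29 became 73 of 733 with a summed FPKM of at least 50, and 7 to 110 without one heart. With the replicate number as a block, 0 were called (limma, 681 at an unadjusted p under 0.05, against 742 without the block). That block gave 4306 rising and 2258 falling genes. Deviations of same-numbered hearts correlated at -0.046 to 0.14, and 1 of 6 sham hearts correlated best with its own number. Such weak correlations over 6 pairs cannot settle whether the numbers mark pairs, because a shared day or batch need not show in them. The cause of these movements was not tested. FPKM gives no counting error, so depth limits low genes by an unknown amount.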

Other observations

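Some gene groups fell outside the comparisons above. Splicing regulators rose as deposited: of 40 SR protein and hnRNP genes 24 (60%) rose and 2 (5%) fell (median 0.28), but 11 rose and 2 fell with median-ratio scaling, here called rescaled. Over all genes 38.3% rose and 20.1% fell as deposited, and 28.4% rose and 28.5% fell rescaled. The 11 rescaled rises among 40 genes were thus near the share over all genes, and the 2 falls were below it. Srsf3, a splicing factor gene, rose from 27.5 ± 2.69 to 46.3 ± 8.13 FPKM (SD, n = 6 each; log2 fold change 0.72, SE 0.12), while the kinase gene Clk1, which phosphorylates SR proteins, fell from 53.8 ± 5.95 to 41.7 ± 6.1 FPKM (-0.37, SE 0.11). Among 28 histone, variant and chaperone genes 16 (57.1%) rose and 4 (14.3%) fell (median 0.46; rescaled 16 and 4). Hmga1, an architectural chromatin protein gene, lay between 60.7 and 67.4 FPKM in the sham hearts (median 63.5) and between 63.7 and 235 FPKM in the infarcted hearts (median 151) (log2 fold change 1.11, SE 0.25, adjusted p = 0.00223), with 5 of 6 infarcted hearts above the sham range, whereas Hmgb3 fell from 52.2 ± 5.02 to 30.7 ± 6.73 FPKM (-0.77, SE 0.13). Of 39 endocytosis and ESCRT genes 23 (59.0%) rose and 3 (7.69%) fell (median 0.28; rescaled 17 and 5). Ehd4, which shapes endocytic membranes, rose from 188 ± 17.1 to 395 ± 142 FPKM (0.98, SE 0.21), and the caveolar coat gene Cavin2 fell from 74.2 ± 7 to 46.8 ± 15 FPKM (-0.71, SE 0.17).

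Of 36 membrane phospholipid genes 13 (36.1%) rose and 9 (25%) fell (median 0.12, that of all genes; rescaled 9 and 11), so no direction is given. Lpin1, which makes diacylglycerol and acts as a coactivator of fat oxidation, fell from 40.2 ± 5.91 to 20 ± 10.8 FPKM (-1.12, SE 0.28), and its paralog Lpin2 rose from 1.6 ± 0.304 to 3.15 ± 0.492 FPKM (0.67, SE 0.11). Of 20 purinergic signalling genes 8 (40.0%) rose and 4 (20.0%) fell (median 0.31; rescaled 7 and 6), the shares being near those over all genes. The nucleotide receptor gene P2ry6 rose from 7.42 ± 1.69 to 17.9 ± 4.47 FPKM (1.16, SE 0.18), and P2ry1 fell from 7.76 ± 1.14 to 2.89 ± 1.45 FPKM (-1.25, SE 0.21). Of 20 serpin and protease inhibitor genes 8 (40.0%) rose and 4 (20.0%) fell (median 0.30; rescaled 7 and 4), again near those shares, with Serpinh1, the collagen chaperone gene, rising from 131 ± 11.1 to 320.2 ± 106 FPKM (1.22, SE 0.18) and the complement inhibitor gene Serping1 falling from 141 ± 15.9 to 78.2 ± 24.3 FPKM (-0.89, SE 0.17).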
